A study of Mus musculus with 6 samples.

Results

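The Robo, Slit and netrin systems of axon guidance, represented by 9 genes, were followed in the heads of mouse embryos at E10.5: the receptors Robo1, Robo2 and Robo3, the ligands Slit1, Slit2 and Slit3, the ligand netrin-1 (Ntn1) and the netrin receptors Dcc and Unc5c. They were taken as the probe sets whose annotation names exactly 1 of these genes, with no filter on brightness. This gave 9 probe sets, 1 per gene, among 19938 genes named singly on the array. The genes were picked with earlier results of these data known, and Robo3 was chosen by its spread of log2 signal among the knockout heads, so its values are given as a description without a test.

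Transcripts were measured on Affymetrix arrays in 6 embryo heads, 3 labelled wild type (WT 1 to WT 3) and 3 labelled Tasp1 knockout (KO 1 to KO 3), each titled as a biological replicate. Tasp1 encodes Taspase1, a protease that cuts the histone methyltransferases of the MLL family and the TFIIA precursor. All 6 embryos came from crosses between Tasp1+/- parents on a C57Bl6 background, and the KO-labelled embryos were Tasp1-/-. The dissected part was the prosencephalon plus mesencephalon, and the design asked which genes depend on Taspase1 at that stage.

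Axons find their way by reading secreted cues. Slits, made at the floor plate and other midline sites, bind Robo1 and Robo2 on growth cones and repel them, while netrin-1 attracts axons that carry Dcc and repels those that also carry a receptor of the Unc5 family. Robo3 is the divergent member of its family: it is carried by commissural axons before they cross the midline, is needed for that crossing, and in mammals has lost the strong Slit binding of its relatives. In the early forebrain and midbrain the same systems guide the first tracts and commissures.

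Values are deposited log2 signals, so a difference of 1 is a factor of 2 in signal; each difference is the KO-labelled mean less the WT-labelled mean. Array medians lay between 7.35 and 7.45 and pairs of arrays correlated at 0.989 to 0.996 across the brighter probe sets. WT 1 stood apart along the first principal component (14.8, against −6.32 to 0.29 elsewhere). WT 2 alone had a high signal of Xist, the RNA of the inactive X chromosome (12.3 against 4.90 to 5.24). The Tasp1 probe set was higher in each KO-labelled head (8.59 ± 0.08, SD, n = 3) than in any WT-labelled head (8.34 ± 0.21, SD, n = 3), a difference of +0.24 (limma, adjusted p = 0.79). Whether it reads the deleted sequence is not stated in the labels, so it does not check them. Of 16 forebrain and midbrain markers measured, 16 lay above a log2 signal of 7.06, the level that the dimmest 40% of probe sets do not reach, against 3 of 9 hindbrain markers. Markers of cranial mesenchyme and neural crest (17 of 17), endothelium (12 of 12) and erythroid cells (8 of 8) were above that level too. In such whole tissue, fewer cells of a type and less RNA per cell cannot be told apart.

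Robo3, the receptor of commissural axons, was at the wild-type level in 1 KO-labelled head and lower, at 0.55 and 0.54 times that level, in the others. Its log2 signal (probe set 10592303, gene identifier 19649, chromosome 9) was 7.35, 7.52 and 7.33 in WT 1, WT 2 and WT 3. It was 7.54 in KO 1, 6.55 in KO 2 and 6.52 in KO 3. KO 1 was thus the highest of the 6 heads and KO 2 and KO 3 the lowest, so the groups overlapped. Against the WT-labelled mean of 7.40 ± 0.10 (SD, n = 3), KO 1 stood at 1.10 times, KO 2 at 0.55 times and KO 3 at 0.54 times. The KO-labelled mean of 6.87 ± 0.58 (SD, n = 3) described none of its heads: the gap between KO 1 and the other KO-labelled heads was wider than anything among the WT-labelled heads, whose range was 0.19. The difference of means was −0.53 and ran from −0.87 without KO 1 to −0.36 without KO 3. Readings of 6.55 and 6.52 lie below 7.06, and the background share of so dim a signal is unknown, which makes these ratios of signals and not of transcripts.

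**Figure D1:**
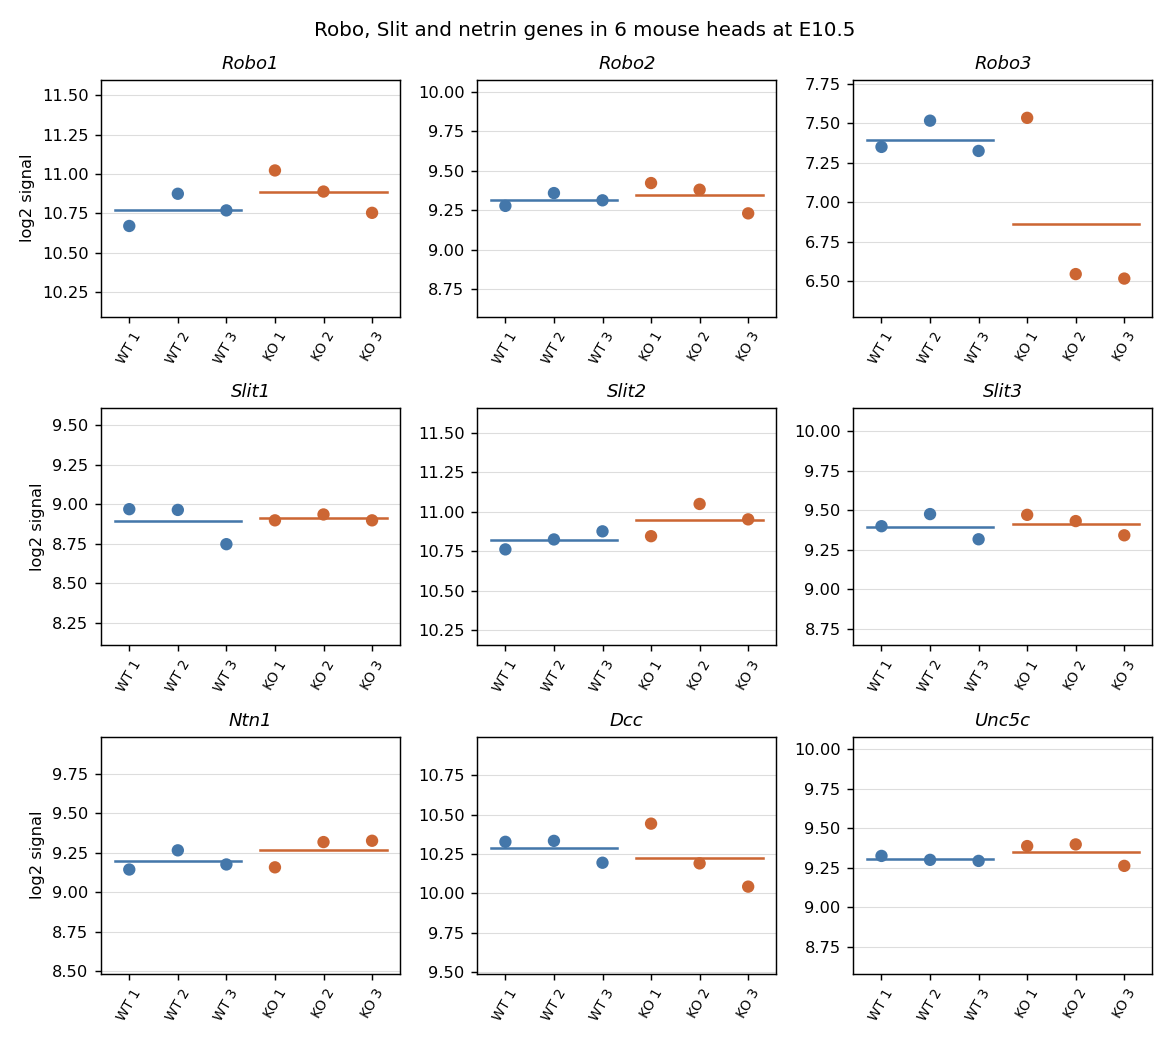
Log2 signal (vertical axes, each panel spanning 1.5 log2 units) of the 9 genes in each head; points are single arrays, blue for WT-labelled and orange for KO-labelled heads, and bars are group means. Robo3 reads 7.54 in KO 1, 6.55 in KO 2 and 6.52 in KO 3, while in the other panels the points of both groups lie at similar heights.

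The range among KO-labelled heads, highest minus lowest, was 1.02 for Robo3. This is the quantity Robo3 was chosen for, and it is given as a description. Of 21789 probe sets with 1 gene symbol, 9 had a KO-labelled range at least as wide, Robo3 included, and the median was 0.14. The next widest member was Dcc at 0.40, followed by Robo1 at 0.27 and Slit2 at 0.20, and Slit1 was the narrowest at 0.04. Among the 8 genes other than Robo3, the range was wider in KO-labelled than in WT-labelled heads for 6, against 45.1% of all these probe sets. Among WT-labelled heads, 27 of all these probe sets had a range at least as wide as 1.02, and the median was 0.15. Xist, high in WT 2 alone, was among the 27.

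**Figure D2:**
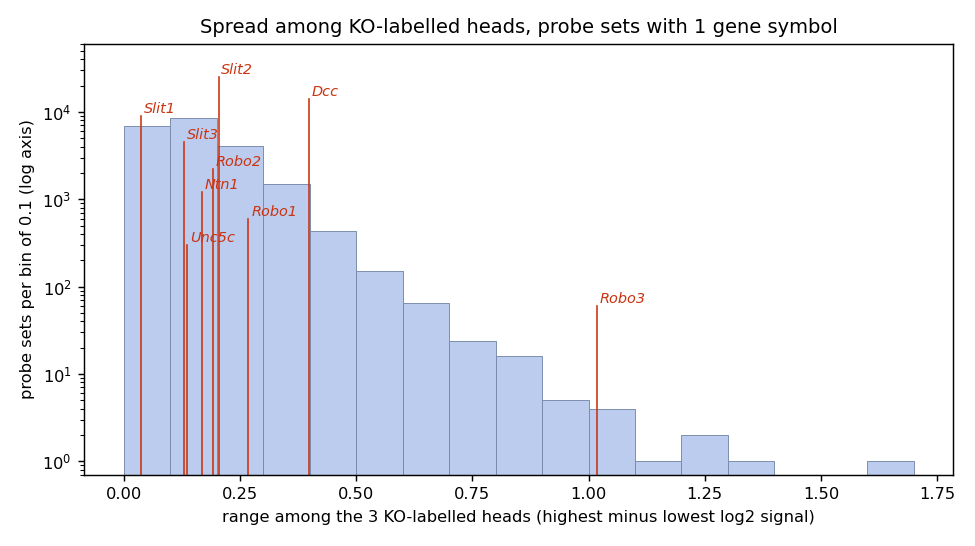
Number of probe sets (vertical axis, log scale) by their range among the 3 KO-labelled heads (horizontal axis, highest minus lowest log2 signal, bins of 0.1); bars count all 21789 probe sets with 1 gene symbol, and red lines mark the 9 genes, with heights chosen only to separate the names. Robo3 lies at 1.02, where few probe sets are found, and the other members at 0.40 or less.

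A stretch upstream of Robo3 is shown because it holds short words of kinds that some homeodomain and bHLH proteins read. Whether any factor measured below reads these words was not tested. Promoter windows of 300 bases, 250 of them before the annotated start, were taken from RefSeq (GRCm38.p6). They were found for 6 of the 9 genes (Robo1, Robo2 with 3 windows, Robo3, Slit2, Slit3 and Unc5c). Both strands were searched for TAATTA, a core read by many homeodomain proteins, and for CACCTG, a form of the E-box read by bHLH and zinc-finger proteins, whose reverse complement is counted as the same word. TAATTA is its own reverse complement, the words do not overlap in these windows, and both were chosen after the expression values had been seen. The Robo3 window held both, starting 101 and 78 bases before the start, and the Robo1 window held the E-box form alone, 164 bases before the start. The other 6 windows of these genes held neither word. The windows of Cntn2 and Bcl11a, named below as most like Robo3 in pattern, held neither word as well. In the stretches below, capitals mark the words.
Robo3, chr9:37433248-37433277, minus strand: tTAATTAcggcgtgatccgagtggCACCTG
Robo1, chr16:72662973-72663002, plus strand: tcgttgaaatctCACCTGagggcgcagttg
Of 32851 such windows, 5.29% held TAATTA, 20.2% held the E-box form, 0.944% held both and 0.125% held both within 30 bases. This distance is the length of the Robo3 stretch printed above. The last share is therefore no independent measure of how rare the Robo3 match is. These matches describe letters in a window and show no binding.

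Robo1 and Robo2, the Slit receptors that lie on chromosome 16, did not follow Robo3. Robo1 (probe set 10436519) read 10.67, 10.87 and 10.77 in WT 1 to WT 3 and 11.02, 10.89 and 10.75 in KO 1 to KO 3. KO 1 was the highest head and WT 1 the lowest, and the groups overlapped. The difference was +0.12, or 1.08 times with a 95% confidence interval of 0.97 to 1.21 (limma, adjusted p = 0.87). Robo2 (probe set 10440344) read 9.28, 9.36 and 9.31 in WT-labelled and 9.42, 9.38 and 9.23 in KO-labelled heads. KO 1 and KO 2 lay above every WT-labelled head and KO 3 below them all. Robo2 differed by +0.03, or 1.02 times with an interval of 0.92 to 1.13 (limma, adjusted p = 0.96), and by −0.01 without KO 1. In KO 2, where Robo3 stood at 0.55 times the WT-labelled mean, Robo1 stood at 1.09 and Robo2 at 1.04 times.

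The Slit ligands were close to their WT-labelled levels, with Slit2 the farthest from it. Slit2, a repellent of the ventral midline, read 10.76, 10.83 and 10.88 in WT 1 to WT 3 and 10.85, 11.05 and 10.95 in KO 1 to KO 3 (probe set 10521759). KO 2 and KO 3 exceeded every WT-labelled head, and KO 1 fell among them. The difference was +0.13, or 1.09 times with an interval of 0.999 to 1.195 (limma, adjusted p = 0.81). An exact two-sided permutation test of Slit2 gave p = 0.2, where 3 heads against 3 can give no less than 0.1. Slit1 (probe set 10467599) read 8.97, 8.96 and 8.75 in WT-labelled heads and 8.90, 8.93 and 8.90 in KO-labelled heads. Its KO-labelled heads lay inside the WT-labelled range, and the difference of +0.02 (interval of the ratio 0.91 to 1.13) turned negative with quantile normalization or median centring. Slit3, the Slit also made in mesenchyme (probe set 10375175), read 9.40, 9.47 and 9.32 in WT-labelled and 9.47, 9.43 and 9.34 in KO-labelled heads, again with the KO-labelled heads inside the WT-labelled range. Its difference of +0.02 (interval of the ratio 0.92 to 1.11) turned negative with median centring. The limma adjusted p was 0.98 for both Slit1 and Slit3.

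In the netrin system the ligand and its attractive receptor lay on opposite sides of zero, each within the spread between heads. Ntn1 (probe set 10387170) read 9.14, 9.27 and 9.18 in WT 1 to WT 3 and 9.16, 9.32 and 9.33 in KO 1 to KO 3. KO 2 and KO 3, the heads with low Robo3, had the highest Ntn1 and KO 1 lay among the WT-labelled heads, as was the case for Slit2. Ntn1 differed by +0.07, or 1.05 times with an interval of 0.95 to 1.16 (limma, adjusted p = 0.91). Dcc, the receptor for attraction to netrin (probe set 10459671), read 10.33, 10.33 and 10.19 in WT-labelled and 10.44, 10.19 and 10.04 in KO-labelled heads. KO 1 was the highest head and KO 3 the lowest, with KO 2 at the level of WT 3. The difference was −0.06, or 0.96 times with an interval of 0.84 to 1.10 (limma, adjusted p = 0.94), and it was +0.03 without KO 3. Unc5c, a receptor for repulsion by netrin (probe set 10496519), read 9.32, 9.30 and 9.29 in WT-labelled and 9.39, 9.40 and 9.26 in KO-labelled heads. KO 1 and KO 2 lay above every WT-labelled head and KO 3 below them all, the same placement as for Robo2. Unc5c differed by +0.04, or 1.03 times with an interval of 0.94 to 1.13 (limma, adjusted p = 0.93).

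Across the 8 genes other than Robo3, 0 passed an adjusted p of 0.05 in limma and 0 had an unadjusted p under 0.05. Over all 21789 probe sets tested, 0 (0%) passed the adjusted threshold and 1354 (6.21%) had an unadjusted p under 0.05. The groups overlapped for 9 of the 9 genes; they did not overlap for 10.9% of all probe sets (6.76% lower and 4.15% higher in KO-labelled heads). All 8 differences were smaller than 0.15 in size, with standard errors between 0.06 and 0.09. The median difference was 0.03 over the 9 genes and −0.01 over all probe sets, and 2 of the 9 means were lower in KO-labelled heads (4 with median centring), against 56.3% of all probe sets. The intervals of the ratio reached 1.21 for Robo1 and 0.84 for Dcc, and differences inside these bounds could not be told from none with 3 heads a group. Leaving out 1 head at a time moved the difference of Robo1 between 0.05 and 0.18, of Slit2 between 0.08 and 0.18, of Ntn1 between 0.04 and 0.13 and of Unc5c between 0.02 and 0.09. KO 1 was the highest KO-labelled head for 4 of the 8 genes other than Robo3, against 34.2% of all probe sets. KO 3 was the lowest, alone or tied, for 6 of the 8, against 39.4%.

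**Figure D3:**
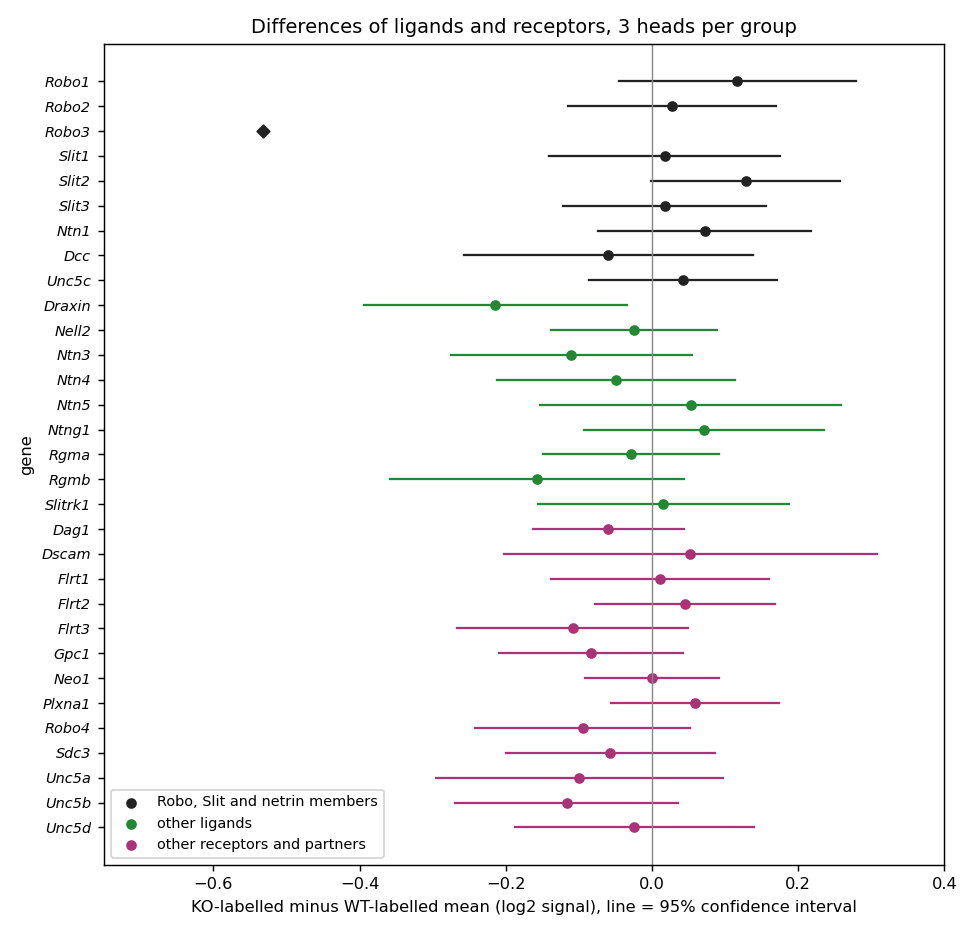
Difference between KO-labelled and WT-labelled means (horizontal axis, log2 signal) for the 9 genes (black), other guidance ligands (green) and other receptors and partners (purple); dots are differences and lines their 95% confidence intervals from limma, with Robo3 as a diamond without an interval because its spread was the reason for choosing it. Robo3 lies at −0.53 and every other gene between −0.21 and 0.13.

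Other ligands and receptors of these systems stayed near their WT-labelled levels as well. Of 9 further ligands measured, 6 were lower and 3 higher, with a median of −0.03 (−0.07 without KO 1), and 0 passed the adjusted threshold in limma (1 had an unadjusted p under 0.05, and 6.21% of all probe sets had). That one was Draxin, a secreted repellent that binds Dcc and netrin, which read 8.90, 8.94 and 8.76 in WT-labelled and 8.78, 8.68 and 8.50 in KO-labelled heads. KO 2 and KO 3 lay below every WT-labelled head, at a difference of −0.21 (limma, adjusted p = 0.78). Nell2, a ligand of Robo3, differed by −0.02. Of 13 further receptors and partners, 8 were lower and 5 higher, with a median of −0.06 (−0.02 without WT 1), and 0 had an unadjusted p under 0.05 in limma. The groups did not overlap for 2 of the 13, both lower in KO-labelled heads (6.76% of all probe sets), namely Robo4 and Flrt3. Among the 13 were the netrin receptor Unc5b (−0.12), the Dcc relative Neo1 (0.00) and Flrt3, a membrane partner of Robo1 (−0.11).

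Robo4, the endothelial Robo, is the next protein-coding gene to Robo3 on chromosome 9 in the RefSeq order. It read 7.71, 7.64 and 7.64 in WT-labelled and 7.58, 7.54 and 7.58 in KO-labelled heads, a difference of −0.09 (limma, adjusted p = 0.88). All KO-labelled heads lay below all WT-labelled heads, but KO 1 did not stand apart as it did for Robo3. On the other side of Robo3, Msantd2 differed by +0.10 and read 8.98, 8.97 and 8.88 in KO 1, KO 2 and KO 3.

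Proteins that act inside the growth cone after Robo and Dcc were measured through 27 genes: 18 had the higher and 9 the lower mean in KO-labelled heads, and the median difference was 0.02. In limma 0 passed the adjusted threshold and 0 had an unadjusted p under 0.05. Srgap1, a GTPase activator that binds the Robo tail, had the smallest p with +0.17, followed by its relative Srgap2 (+0.10) and the adaptor gene Nck2 (+0.14), which couples Dcc to the cytoskeleton. The median turned negative without WT 1 (−0.02). Of 24 semaphorins, plexins and neuropilins, 15 were higher and 9 lower (median 0.01), and 3 had an unadjusted p under 0.05 in limma (6.21% of all probe sets), with 0 past the adjusted threshold. These were the semaphorin receptor Plxnc1 (+0.21, limma adjusted p = 0.61), the ligand Sema3d (+0.26) and the receptor Plxnd1 (−0.14). Of 20 ephrins and Eph receptors, 9 were higher and 11 lower (median −0.01), with 0 past the adjusted threshold and 1, Efna4 (−0.12), at an unadjusted p under 0.05 in limma, a share near the 6.21% of all probe sets. The median of the semaphorin list was −0.02 without KO 1, and that of the ephrin list 0.03 without KO 3.

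Transcription factors with known ties to Robo or Slit genes in some part of the nervous system differed in both directions. Of 14 measured, 5 were higher and 9 lower (median −0.07); 3 had an unadjusted p under 0.05 on each side, against 2.32% of all probe sets higher and 3.89% lower, and 0 passed the adjusted threshold in limma. Sim1 and Sim2, bHLH-PAS factors of the hypothalamus needed for its mammillary axons, were higher in every KO-labelled head than in any WT-labelled head. Sim1 read 8.75, 8.63 and 8.71 in WT-labelled and 8.97, 9.05 and 9.02 in KO-labelled heads, a difference of +0.31 (limma, adjusted p = 0.29). Sim2 read 7.76, 7.94 and 7.79 against 8.30, 8.11 and 8.18, a difference of +0.37 (limma, adjusted p = 0.33). KO 1 was raised along with KO 2 and KO 3 for both, unlike the placement of KO 1 for Robo3. Lhx2, a LIM-homeodomain factor of the forebrain, lay lower in all 3 KO-labelled heads (11.09, 10.95 and 10.85 against 11.33, 11.20 and 11.34; −0.33, limma adjusted p = 0.30). Its relative Lhx9 read 8.69, 8.47 and 8.37 in WT-labelled heads and 8.48, 8.09 and 7.86 in KO 1, KO 2 and KO 3, with KO 1 among the WT-labelled heads and the others below them (−0.37, limma adjusted p = 0.78). Tbr1, a T-box factor of early cortical neurons, read 7.82, 7.32 and 7.08 against 7.40, 6.64 and 6.11, a difference of −0.69 (limma, adjusted p = 0.79) with the same placement, KO 2 and KO 3 lying below 7.06.

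The genes whose pattern over the 6 heads was most like that of Robo3 were sought among 452 probe sets in the brighter 60% with an SD of at least 0.2. Since Robo3 had 4 heads near 7.4 and the remaining heads near 6.5, Pearson's r mainly ranks genes by whether KO 2 and KO 3 stand apart, and it is given as a description. The highest r belonged to Cntn2 (0.97), which encodes TAG-1, an adhesion protein of early commissural and other axons. Cntn2 read 8.44, 8.70 and 8.40 in WT 1 to WT 3 and 8.61, 8.02 and 8.04 in KO 1 to KO 3. KO 2 and KO 3 were the lowest heads and KO 1 lay inside the WT-labelled range. Next came Bcl11a, a zinc-finger factor of developing neurons (r = 0.97), which read 10.08, 10.11 and 9.88 against 10.16, 9.62 and 9.52. The chemokine gene Cxcl13 followed (r = 0.95) with 9.72, 9.45 and 9.55 against 9.32, 7.72 and 7.77, the widest gap of these 6 genes; its Spearman's rho was 0.43, since KO 1 was also below the WT-labelled heads, against 0.89 for Cntn2 and 1 for Bcl11a. Acss1 (0.93), Cd59a (0.93) and Ripor2 (0.92) completed the 6. The most opposite were Adamts3 (−0.96), the p53 target Ccng1 (−0.92) and Cdh20 (−0.92), a cadherin gene.

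**Figure D4:**
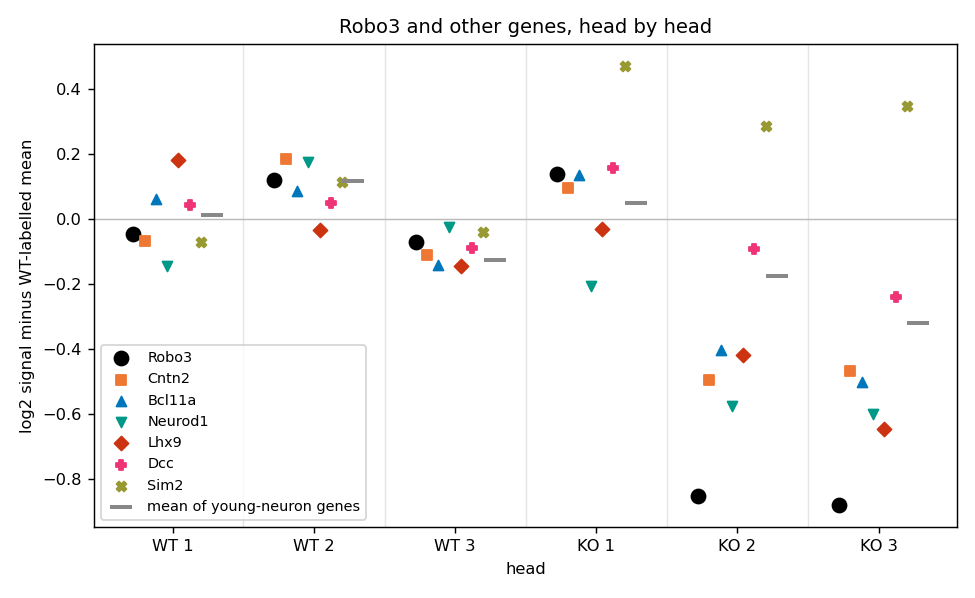
Log2 signal minus the WT-labelled mean (vertical axis) in each of the 6 heads (horizontal axis); symbols stand for Robo3 and 6 other genes, and the grey bar for the mean of 23 young-neuron genes. In KO 2 and KO 3 Robo3 lies at −0.85 and −0.88, Cntn2 at −0.50 and −0.47, and the young-neuron mean at −0.18 and −0.32, while in KO 1 Robo3 lies at 0.14.

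Genes of young neurons, the class of cell that carries Robo receptors on its axons, placed the KO-labelled heads in the same order. The mean log2 signal of 23 such genes, all of those listed, was 9.21, 9.31 and 9.07 in WT 1 to WT 3 and 9.24, 9.02 and 8.87 in KO 1 to KO 3. Robo3 read 7.35, 7.52 and 7.33 in WT 1 to WT 3 and 7.54, 6.55 and 6.52 in KO 1 to KO 3. A mean of 23 genes and the signal of 1 dim probe set are unlike measures. KO 1 was the highest KO-labelled head for 22 of the 23 genes and KO 3 the lowest for 23. Of the 23, 21 were lower and 2 higher in KO-labelled heads (median −0.12, −0.24 without KO 1 and −0.07 without KO 3); 2 were lower at an unadjusted p under 0.05 in limma, as were 3.89% of all probe sets, and 0 passed the adjusted threshold. They were the proneural factor gene Neurod1 (8.95, 9.27 and 9.07 against 8.89, 8.52 and 8.50; −0.46, limma adjusted p = 0.41) and the neurofilament gene Nefm (−0.28). The list of axon adhesion and growth genes, which shares some genes with the young-neuron list and includes Cntn2, behaved likewise. Of its 19 genes, 16 were highest in KO 1 among KO-labelled heads and 18 lowest in KO 3, with a median of −0.11 (0.0006 without KO 3). Over all probe sets, KO 1 was the highest KO-labelled head for 34.2% and KO 3 the lowest for 39.4%. What part the amount of neurons had in the Robo3 values was not tested.

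Markers of other cells differed in their placement, and the order of KO 1, KO 2 and KO 3 in list means was not particular to neurons. The mean of 16 neural progenitor genes also fell in that order, at 10.89, 10.86 and 10.84, against 10.88 to 10.94 in WT-labelled heads. So did the list means of crest and mesenchyme genes and of the semaphorin and ephrin guidance genes. Gene by gene, KO 1 was the highest KO-labelled head for 6 of the 16 progenitor genes and KO 3 the lowest for 5. Those counts were near the shares of all probe sets, 34.2% and 39.4%, unlike the counts for young neurons. The hindbrain, a rich source of Robo3 next to the dissected tissue, had a list mean of 6.31 to 6.50 in WT-labelled and 6.23 to 6.41 in KO-labelled heads, and KO 1 was the highest KO-labelled head for 0 of its 9 genes. The floor plate, a source of Slits and netrin-1, had 8.77 to 8.89 and 8.76 to 8.81, with Shh differing by −0.02 and a median of −0.01 over 10 genes. For neural crest and mesenchyme KO 1 was the highest KO-labelled head in 16 of 17 genes, and the list mean was 9.87 in KO 1 against 9.67 and 9.65 in KO 2 and KO 3 and 9.73 to 9.76 in WT-labelled heads. Their part in the results was not tested. Of the 16 forebrain and midbrain markers, 10 were lower and 6 higher in KO-labelled heads, with a median of −0.07 (−0.15 without WT 2 and −0.02 without WT 1). Lhx2, Emx2, Emx1, Dlx2, Fezf2 and Wnt8b, 6 of the 16, were lower at an unadjusted p under 0.05 in limma, against 3.89% of all probe sets, and 0 passed the adjusted threshold. The groups did not overlap for 3 of them (6.76% of all probe sets): Lhx2, Emx2 (−0.32) and Emx1 (−0.27), transcription factor genes of the early forebrain. Otx2, a transcription factor gene of the forebrain and midbrain, differed by +0.04.

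The median of the floor plate list was 0.01 without WT 1, and that of the neural crest and mesenchyme list, −0.0084, was 0.05 without KO 3. Over the other lists, 1 head left out moved the median of 16 neural progenitor genes (−0.03) between −0.05 and −0.02, of 9 hindbrain genes (−0.07) between −0.13 and −0.03, of 7 genes of cranial sensory ganglia (−0.11) between −0.16 and −0.02, and of 12 endothelial genes (−0.0009) between −0.02 and 0.02. It moved that of 8 erythroid genes (−0.10) between −0.15 and −0.04, of 10 macrophage genes (−0.06) between −0.09 and −0.01, and of 12 surface ectoderm genes (−0.0039) between −0.05 and 0.02. In each of these lists 0 genes passed the adjusted threshold in limma. At an unadjusted p under 0.05 (6.21% of all probe sets) there were 4 genes of neural progenitors, 3 each of crest and mesenchyme and of surface ectoderm, 1 each of cranial ganglia, endothelium, erythroid cells and macrophages, and 0 of floor plate and hindbrain.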

How the data were processed

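Total RNA (100 ng per head, per the labels' protocols) was labelled with biotin and read on 1 array per head. The authors deposited log2 signals for 35556 probe sets; per the submitters' processing notes the software was Affymetrix Expression Console and MAS5, and the labels do not state how background, scaling and summarisation were done. The number of arrays limits the precision. The values were used as deposited. Probe sets with 1 symbol in the platform annotation (21789; 1621 had several, 12146 were not listed) entered limma 3.58.1 in R 4.3.3 (lmFit, eBayes with a variance trend, two-sided, Benjamini-Hochberg over all of them). The fit was tested on simulated data.

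The members, the gene lists and the alternatives were chosen with earlier results of these data known. Text names the 9 members, Tasp1, Xist, from each list up to 4 genes with the smallest p, and the 6 genes most and 3 least like Robo3 by Pearson's r; Nell2, Neo1, Tbr1, Shh, Otx2, Fezf2, Wnt8b and Msantd2 were added after their values were seen. A list's gene is represented by its brightest probe set, and lists share some genes. Replicate numbers state no pairing and same-numbered heads did not deviate together (r of deviations from group means −0.21, −0.12 and −0.24), so no block was used. Alternatives changed normalization, dim-probe filters, probe sets, variance model, array weights, block, an Xist covariate and each head. Python 3.11.15 and matplotlib 3.10.9 drew the figures.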

Additional observations from a re-analysis of the deposited data

How the results depend on the processing

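Of the 8 genes other than Robo3, 0 passed the threshold under any alternative run. The count of probe sets called over the array, 0 as reported, was 3 at an adjusted p under 0.10, 9 with all probe sets of the table, 1 with array weights and 0 to 8 with 1 head left out: 1 without WT 1 and 8 without KO 1. With the replicate number as a block it was 0 (replicate block; 1015 at an unadjusted p under 0.05), and the block changed no call. The count of members lower in KO-labelled heads, 2 as reported, was 4 with median centring, 1 with the dimmest 60% left out, a filter that removes Robo3 itself, and 1 to 4 with 1 head left out (4 without WT 3 or KO 1, 1 without KO 3). Slit1 differed by −0.0013 with quantile normalization and −0.0098 with median centring, and Slit3 by −0.0094 with median centring; the cause was not tested. With 1 head left out, Slit1 ran from −0.0559 (without WT 3) to 0.0549, Slit3 from −0.0228 (without WT 3) to 0.0569, Robo2 from −0.0112 (without KO 1) to 0.0847 and Dcc from −0.168 to 0.0313 (without KO 3). The range of Robo3 among KO-labelled heads ran from 0.0285 without KO 1 to 1.02 with 1 head left out, and was 0.68 with 64 added on the linear scale, which shrinks differences of dim probe sets by construction. The r of Cntn2 with Robo3 was 0.89 as Spearman's rho, 0.96 on deviations from group means, and 0.96 to 0.99 with 1 head left out, a setting added after seeing the data. Cntn2 was picked for the highest r in these same heads, so these values are no independent check of the likeness. Dim signal limits the reading of Robo3.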
